A study of Rattus norvegicus with 8 samples.

Results

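The taste receptors and trace amine receptors were examined in the *substantia nigra* (SN), the midbrain nucleus that holds the dopaminergic neurons lost in Parkinson's disease. The probes were all those on the array whose RefSeq accession pairs, in a gene table of the rat assembly GRCr8, with a symbol that starts *Tas1r*, *Tas2r* or *Taar* followed by a number. The rule uses names alone and no measured value. It found 53 of the 16678 genes named on the array, measured by 56 of its 45598 probes. They are 4 probes for 3 *Tas1r* genes, 34 probes for 33 *Tas2r* genes and 18 probes for 17 *Taar* genes. The table lists 60 such symbols, and the 7 for which no probe was named here are *Tas2r102*, *Tas2r130* and 5 pseudogenes. Each of these probes sits on 1 spot of an array. *Taar7a*, *Tas1r2* and *Tas2r114* have 2 probes each.

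RNA was taken from the injected side of 3-month-old female Sprague Dawley rats that received one intranigral injection of an AAV6 vector and were killed 20 weeks later. The AAV-αSyn rats (AAV-aSyn in the labels) received the wild-type human α-synuclein gene in that vector, and the AAV-Null rats a vector without it. No rat without surgery was measured. According to the methods the α-synuclein vector was given at the higher titre, so transgene and vector dose cannot be told apart, and the sources used here do not name the promoter. The deposited arrays number 4 per group, whereas the methods give 3 biological replicates per group, and all 8 arrays lie on 1 slide that was read in 1 scan. The 6 dopaminergic neuron markers examined (*Th*, *Slc6a3*, *Slc18a2*, *Nr4a2*, *Pitx3* and *Aldh1a1*) were above background on every array, and each had a lower mean in the AAV-αSyn group. The labels do not state that the samples came from separate rats, so the p-values below measure the spread between these samples.

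Taste receptors are G protein-coupled receptors of taste bud cells. Tas1r proteins work in pairs, Tas1r1 with Tas1r3 for amino acid (umami) taste and Tas1r2 with Tas1r3 for sweet taste, while Tas2r proteins detect bitter compounds. Trace amine receptors are related to the receptors for dopamine and serotonin. Taar1 responds to trace amines such as tyramine and β-phenylethylamine and acts on monoamine neurons, and most other Taar proteins are odorant receptors of the nose. In the bulk tissue measured here, fewer cells of a type and less RNA per cell cannot be told apart.

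Nearly all of these receptors lacked a signal called well above background in the SN. Feature Extraction, the scanner's image software, calls a spot well above background when its intensity clears the background by a set margin. By that call 4 of the 56 probes (7.14%) were above background on at least 1 array, against 33853 of all 45598 probes (74.2%). Among olfactory receptor probes with a symbol starting *Olr* (55 genes) the share was 10 of 60 (16.7%). For vomeronasal receptor probes with a symbol starting *Vom1r* or *Vom2r* (79 genes) it was 25 of 101 (24.8%). Such receptors under other symbols were not counted. These shares are descriptions and were not tested against each other. The 4 probes were those of *Tas1r1*, *Taar7e*, *Tas2r113* and *Tas2r145*, and only *Tas1r1* was above background on all 8 arrays. *Taar7e* was above background on 4 arrays, replicates 1 and 2 of both groups. *Tas2r113* passed on 2 arrays, AAV-Null replicate 3 and AAV-αSyn replicate 4, and *Tas2r145* on AAV-Null replicate 3 and AAV-αSyn replicate 1. No receptor was above background on all arrays of one group and on none of the other.

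A weaker call in the same files asks only whether a spot's signal is positive and significant against the local background. By that call 33 of the 56 probes had a signal on at least 1 array and 7 had one on all 8, against 42209 and 33872 of all 45598 probes. The 7 were *Tas1r1*, *Taar7e*, *Tas2r113* and *Tas2r145*, joined by *Taar7b*, *Tas2r116* and *Tas2r138*. A further 26 probes had a significant signal on some arrays and not on others. The remaining 23 probes, 12 *Tas2r* and 11 *Taar*, had none on any array, as did 3389 of all probes. Those 11 include *Taar1*, the best known trace amine receptor, whose background-subtracted intensity lay between -5.07 and 1.64 arbitrary units over the 8 arrays, and all 3 *Taar8* genes. For *Taar1* only an upper limit at the level of the array background can be given.

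**Figure D1:**
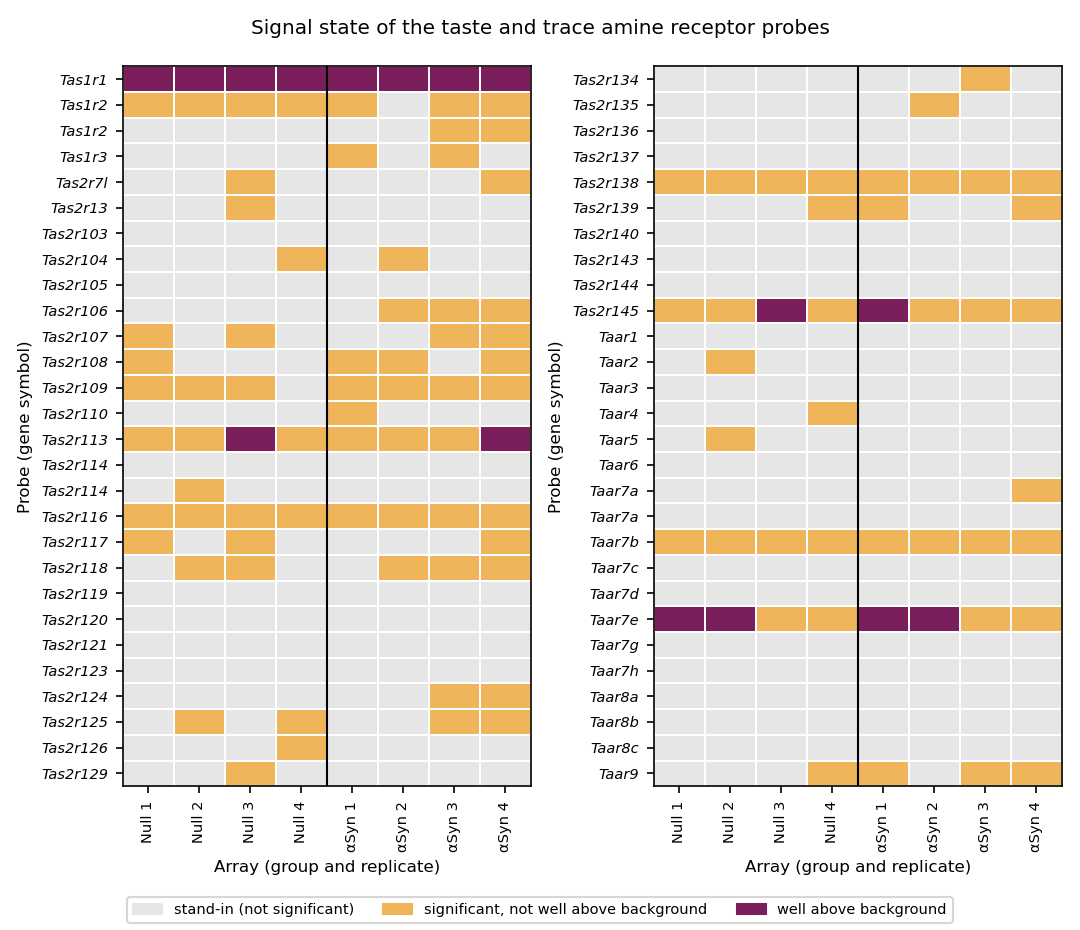
Signal state of the 56 receptor probes (rows, by gene symbol) on the 8 arrays (columns, 4 AAV-Null left of the line and 4 AAV-αSyn right of it). Grey cells are values that were not significant against background, orange cells were significant and not well above background, and purple cells were well above background, which 16 of 448 values were.

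What the files hold for a spot without a significant signal decides what a group difference at background can mean. On each array between 12.9% and 14.6% of the spots other than controls had no significant signal. In nearly all of these spots the deposited processed intensity equalled the software's own error estimate for that spot to within 2%, so it is a stand-in and not a measured signal. The median stand-in was between 2.13 and 2.80 intensity units, depending on the array. Of the 448 receptor values (56 probes on 8 arrays), 327 were stand-ins (73.0%), 105 were significant but not well above background (23.4%) and 16 were well above background (3.57%). The *Taar* probes held the highest share of stand-ins of the families, 120 of 144 values (83.3%), followed by *Tas2r* with 194 of 272 (71.3%) and *Tas1r* with 13 of 32 (40.6%). Over all probes of the array the share was 17.7%. Restricted to probes above background on no array, it was 78.6% of 416 values for the 52 receptor probes and 66.7% for all 11745. In the AAV-Null group 169 of 224 receptor values were stand-ins (75.4%) and in the AAV-αSyn group 158 of 224 (70.5%). Per array there were 41 to 44 stand-ins in the AAV-Null group and 35 to 43 in the AAV-αSyn group, so the groups overlapped.

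*Tas1r1*, the umami-specific partner of the Tas1r pair, was the one receptor above background throughout (probe A_44_P128186). Its background-subtracted intensity was 20.1, 25.0, 27.9 and 33.0 units on the AAV-Null arrays and 41.9, 24.0, 24.8 and 39.4 units on the AAV-αSyn arrays. AAV-αSyn replicates 1 and 4 were the highest of all 8, while replicates 2 and 3 lay inside the AAV-Null range. After log2 transformation and quantile normalization the means were 4.61 ± 0.29 (SD, n = 4 arrays) and 4.86 ± 0.32 (SD, n = 4 arrays). The log2 difference was 0.25 (SE 0.19, 95% interval -0.20 to 0.69), with an adjusted p = 0.972 in limma's fit of the 33853 probes above background. An exact permutation test over all 70 splits of the arrays gave p = 0.257, where the smallest p it can give is 0.0286. The difference did not exceed the spread between arrays. It was 0.12 without AAV-αSyn replicate 1, 0.13 without AAV-Null replicate 1 and 0.058 with background correction by normexp.

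The other subunit genes of the family were at background. *Tas1r3*, the shared subunit of the umami and sweet receptors, had a significant signal on AAV-αSyn replicates 1 and 3 and a stand-in on the other 6 arrays. Its log2 difference was 0.45 (SE 0.26), with p = 0.314 in the exact permutation test. In background-subtracted intensity AAV-αSyn replicates 2 and 4 lay inside the AAV-Null range. *Tas1r2*, the sweet-specific subunit, gave different pictures at its 2 probes. One probe (A_44_P503421) had a significant signal on 7 arrays and a log2 difference of -0.18, and the other (A_64_P040483) had one on AAV-αSyn replicates 3 and 4 only and a log2 difference of 0.39. Neither came under an unadjusted p of 0.05 in limma's fit of all probes, and the exact permutation test gave p = 0.543 and p = 0.114.

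*Taar7e*, one of the Taar genes of the olfactory type, had levels that differed between replicate numbers in both groups (probe A_44_P1081600). Its background-subtracted intensity was 20.0, 18.9, 10.8 and 5.06 units on AAV-Null replicates 1, 2, 3 and 4 and 18.5, 17.0, 11.7 and 9.16 units on the AAV-αSyn replicates of the same numbers. The file headers put arrays of the same replicate number at the same position, so the number and the position cannot be told apart, with 4 positions on each of 2 sides of the slide and 2 arrays of each group per side. The probe was brighter on replicates 1 and 2 than on 3 and 4 in both groups. Within a replicate number, the log2 difference between AAV-αSyn and AAV-Null was -0.19, 0.077, 0.13 and 0.38. The log2 difference over all arrays was 0.10, with an SE of 0.48 in limma's fit (adjusted p = 0.992) and an SE of 0.11 when replicate number was a block (adjusted p = 0.914).

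The 2 bitter receptors above background showed no shared order of arrays. *Tas2r113* (probe A_64_P037015) had background-subtracted intensities of 6.78, 11.0, 13.4 and 4.34 units in the AAV-Null group and 9.01, 8.18, 6.16 and 17.4 units in the AAV-αSyn group. *Tas2r145* (probe A_44_P1093336) had 4.37, 9.25, 12.2 and 8.61 units in the AAV-Null group and 12.6, 5.42, 8.88 and 8.97 units in the AAV-αSyn group. The highest and the lowest array of *Tas2r113* were both replicate 4, of different groups, and those of *Tas2r145* were both replicate 1. The log2 difference was 0.16 for *Tas2r113* (SE 0.37, 95% interval -0.68 to 1.01, adjusted p = 0.987 in limma's fit). For *Tas2r145* it was 0.078 (SE 0.35, 95% interval -0.72 to 0.88, adjusted p = 0.992 in limma's fit). The exact permutation test gave p = 0.743 for *Tas2r113*, p = 0.971 for *Tas2r145* and p = 0.8286 for *Taar7e*. Leaving out a single array turned the sign of all 3 differences, to -0.28 for *Taar7e* without AAV-Null replicate 4, to -0.092 for *Tas2r113* without AAV-Null replicate 4 and to -0.27 for *Tas2r145* without AAV-Null replicate 1.

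**Figure D2:**
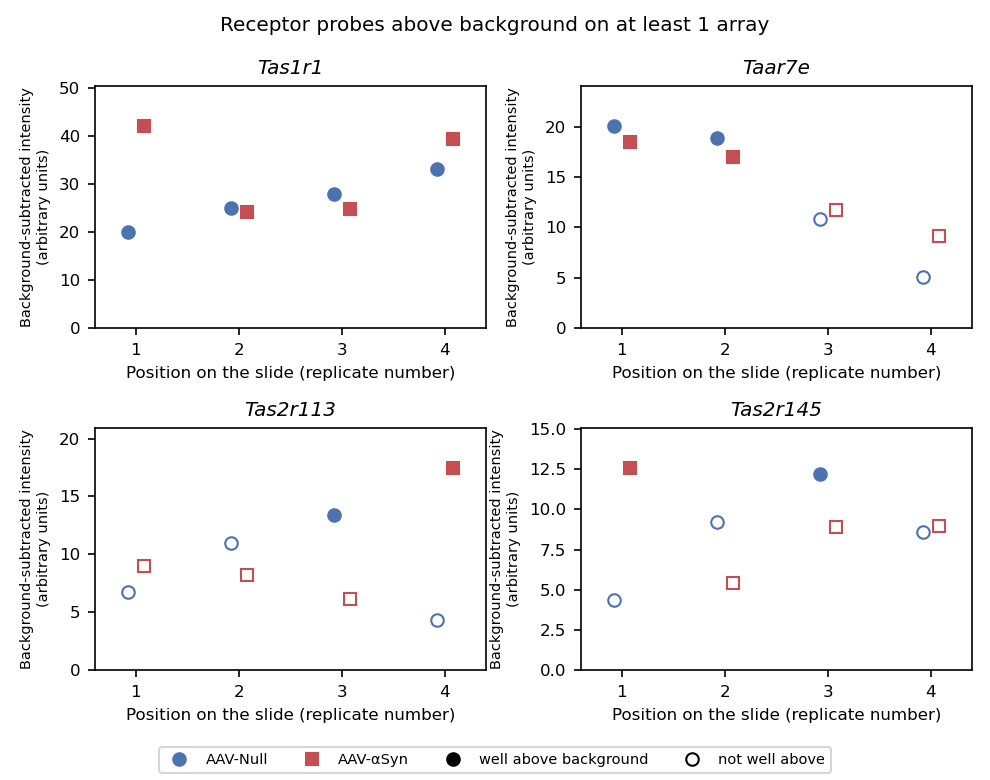
Background-subtracted intensity (arbitrary units, linear axis from 0) of the 4 receptor probes above background on at least 1 array, against the position of the array on the slide. Circles are AAV-Null arrays, squares are AAV-αSyn arrays and filled symbols are well above background. *Taar7e* falls from 20.0 to 5.06 units over the AAV-Null positions and from 18.5 to 9.16 over the AAV-αSyn positions.

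Across the whole set the groups did not separate. The 56 probes were placed in limma's fit of all 45598 probes, two-sided, with p-values adjusted over all of them by the Benjamini–Hochberg method. None passed an adjusted p of 0.05, where 5 of all probes did (0.011%), and the lowest adjusted p of a receptor was 0.791. Under an unadjusted p of 0.05 there was 1 receptor, *Tas2r106* (1.79% of the 56), against 2574 of all probes (5.64%). Over the 52 receptor probes above background on no array that count was again 1 (1.92%), against 342 of 11745 probes at background (2.91%). The 8 arrays fell apart into the 2 groups for none of the 56 probes, against 1442 of all probes (3.16%) and 146 of those at background (1.24%). The mean was higher in the AAV-αSyn group for 34 probes and lower for 22, and the difference was under 0.1 on the log2 scale for 33 of them.

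Differences at background were smallest where all 8 values were stand-ins. The 23 receptor probes with a stand-in on every array had a median absolute log2 difference of 0.0027 and a largest one of 0.018. For the 26 probes with a signal on some arrays the median was 0.17 and the largest 0.70. The 3 probes with a significant but dim signal on all arrays, *Taar7b*, *Tas2r116* and *Tas2r138*, had differences of -0.52, -0.51 and 0.17. Over all 52 probes at background the median absolute difference was 0.032 (0.013 without AAV-Null replicate 2 and 0.016 without AAV-Null replicate 3) and the 90th percentile 0.469, beside 0.109 and 0.493 over the 11745 probes at background. With normexp background correction the medians were 0.0297 for the receptors and 0.0286 for all probes at background. In limma's fit of all probes none of the 52 reached a difference of 1, which 60 of those 11745 did (0.511%). In the deposited matrix *Tas2r106*, one of the 52, differed by 1.10. Among all probes at background the median was 0.0031 for the 3389 that were stand-ins on 8 arrays, rose to 0.34 for the 780 with a significant signal on 7 and was lower again, at 0.24, for the 782 with one on all 8. A small difference between stand-ins therefore reports the error estimates of the spots and puts no limit on a change in the transcript.

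**Figure D3:**
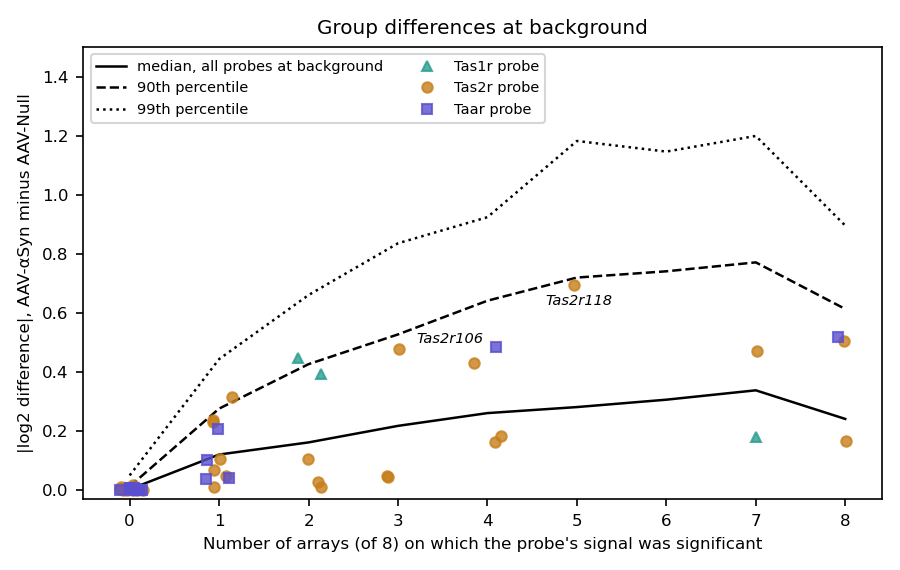
Absolute log2 difference between AAV-αSyn and AAV-Null (vertical) for the 52 receptor probes above background on no array, against the number of arrays on which the signal was significant (horizontal, points spread sideways for clarity). Lines give the median, 90th and 99th percentile of all 11745 probes at background; the 23 receptor probes at 0 arrays lie at or below 0.018.

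The background-subtracted intensity from before the substitution was also compared, since it is measured for every spot. Over the 52 probes at background the median absolute difference between group means was 1.02 intensity units, and the differences ranged from -2.86 to 3.76 units. The median within-group SD was 2.04 units. Over the 11745 probes at background the corresponding values were 1.06 and 2.12 units. On this scale the arrays fell apart into the 2 groups at 1 of the 52 receptor probes (1.92%), against 310 of the 11745 (2.64%). That one was *Tas2r120*, named after its values were seen, which was a stand-in on all 8 arrays. Its intensity was -2.94, -1.70, -1.85 and -1.88 units in the AAV-Null group and -1.58, -0.058, -1.59 and 1.57 units in the AAV-αSyn group, with p = 0.0286 in the exact permutation test, the smallest it can give.

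*Tas2r106*, a bitter receptor, had the lowest p of the set while lying below the well above background call on every array (probe A_64_P115472). Its normalized log2 intensity was 1.32, 1.31, 1.33 and 1.33 on the AAV-Null arrays and 1.32, 2.13, 1.95 and 1.80 on the AAV-αSyn arrays. The 4 AAV-Null values and that of AAV-αSyn replicate 1 are stand-ins, and the other three are significant but dim signals. The means were 1.32 ± 0.012 (SD, n = 4 arrays) and 1.80 ± 0.35 (SD, n = 4 arrays), and the SD of the AAV-Null group is a spread of error estimates. The log2 difference was 0.48 (SE 0.16) with p = 0.0222 and an adjusted p = 0.791 in limma's fit of all probes, and the exact permutation test on the same values gave p = 0.114. Both groups are at background, so this is a difference between stand-ins and dim signals and gives no fold change of the transcript.

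The intensity of *Tas2r106* before substitution spread more evenly. It was -0.78, 0.87, 2.32 and 1.72 units on the AAV-Null arrays and 1.98, 3.52, 3.87 and 3.74 units on the AAV-αSyn arrays. AAV-αSyn replicate 1 lay below AAV-Null replicate 3, so the groups overlapped on this scale too. The means were 1.03 ± 1.35 (SD, n = 4 arrays) and 3.28 ± 0.88 units (SD, n = 4 arrays), a difference of 2.25 units, with p = 0.0571 by the exact permutation test. The exact permutation test gave p = 0.0571 for *Tas2r110* and *Tas2r124* as well, so *Tas2r106* did not lead the receptors on this scale.

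The difference took other values in the deposited matrix and under another background correction. In the authors' deposited matrix the AAV-Null values of *Tas2r106* were 1.37, 1.36, 1.39 and 1.39 and the AAV-αSyn values 1.37, 3.01, 2.83 and 2.69, all log2. The order of the 5 stand-ins and 3 signals is the same split as in the scanner files, and the difference was 1.10 (SE 0.34, adjusted p = 0.807 in limma's fit). With background correction by normexp and an offset of 50 it was 0.014 (adjusted p = 0.996 in limma's fit). That offset by itself shrinks log2 differences of dim signals. Because the methods give 3 replicates per group, the fit was repeated with 1 array of each group left out, in all 16 ways. In the deposited matrix, averaged by sequence identifier, the probe passed the adjusted threshold of limma's fit in the 4 ways that leave out AAV-αSyn replicate 1, with differences of 1.46 to 1.47 and adjusted p between 0.0279 and 0.0364. Between 17 and 25 sequence identifiers passed in those 4 fits, in which *Tas2r106* ranked 17 to 21 by p. In the other 12 ways the adjusted p was between 0.726 and 1. From the scanner files it passed in none of the 16, with differences of 0.36 to 0.67 and adjusted p between 0.378 and 1, and in the 4 of these without AAV-αSyn replicate 1 no probe of the array passed. Without AAV-αSyn replicate 1 every value compared is a stand-in on one side and a signal on the other.

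**Figure D4:**
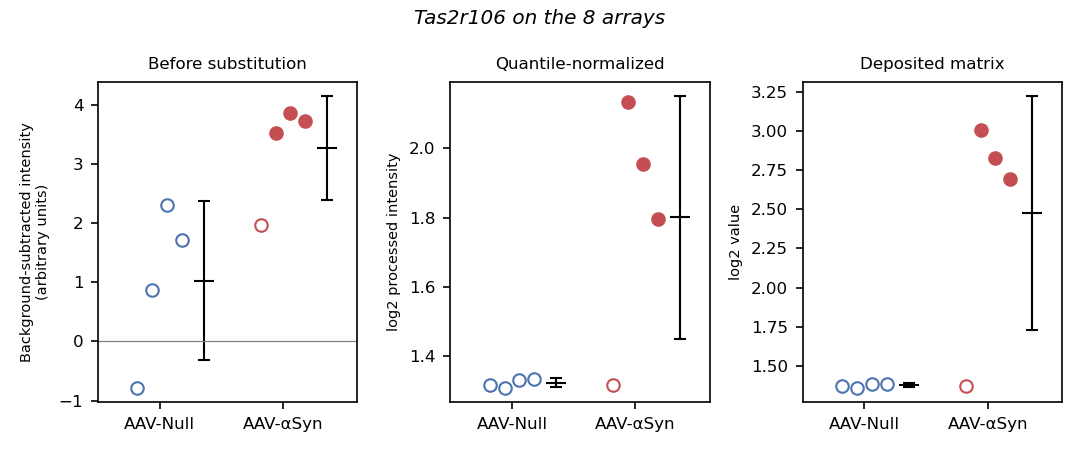
*Tas2r106* on the 8 arrays as background-subtracted intensity (left, arbitrary units), quantile-normalized log2 processed intensity (middle) and log2 value in the deposited matrix (right). Filled points had a significant signal, open points did not, and bars are the mean ± SD of 4 arrays; in the middle panel the AAV-αSyn stand-in is at 1.32 and the lowest signal at 1.80, while on the left an AAV-Null array at 2.32 lies above an AAV-αSyn array at 1.98.

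The pattern of *Tas2r106*, no significant signal in the AAV-Null group and one on 3 of 4 AAV-αSyn arrays, was shared by 85 probes at background. Their log2 differences ran from 0.12 to 0.99 with a median of 0.49, beside 0.48 for *Tas2r106*. Of the 85, 30 (35.3%) had an unadjusted p under 0.05 in limma's fit of all probes, and the lowest adjusted p was 0.742. The reverse pattern, a signal on 3 AAV-Null arrays and none in the AAV-αSyn group, was found at 69 probes with a median difference of -0.49. No receptor had a signal on all 4 arrays of one group and none of the other, a pattern that 14 probes showed toward AAV-αSyn and 7 toward AAV-Null.

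*Tas2r106* belongs to a run of neighbouring bitter receptor genes on chromosome 4, where the gene table lists *Tas2r107*, *Tas2r106*, *Tas2r104*, *Tas2r105* and *Tas2r114* next to each other. The log2 differences of the other 4 were 0.43 for *Tas2r107*, 0.026 for *Tas2r104*, 0.0039 for *Tas2r105*, and -0.0040 and -0.23 for the pair of *Tas2r114* probes. None of them came under an unadjusted p of 0.05, and *Tas2r107* had a significant signal on 2 arrays of each group. The genes of the *Taar* family are likewise listed near each other on chromosome 1, and *Taar7d*, the direct neighbour of *Taar7e*, was a stand-in on all 8 arrays.

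The other receptors at background with the largest differences were *Tas2r118*, *Taar7b*, *Tas2r116* and *Taar9*. *Tas2r118* had background-subtracted intensities of 1.17, 11.8, 4.51 and 0.15 units in the AAV-Null group and -0.46, 2.50, 2.88 and 2.29 units in the AAV-αSyn group. Its log2 difference of -0.70 (SE 0.50) rested on AAV-Null replicate 2, and without that array it was -0.20. The exact permutation test gave p = 0.400 for it.

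*Taar7b* and *Tas2r116* had a significant signal on all 8 arrays. The log2 intensity of *Taar7b* was 2.86, 2.41, 2.95 and 3.12 in the AAV-Null group and 1.56, 2.81, 2.77 and 2.13 in the AAV-αSyn group, and that of *Tas2r116* was 2.92, 3.50, 2.55 and 3.22 against 2.83, 2.65, 2.86 and 1.84. In both the lowest array belonged to the AAV-αSyn group while the ranges overlapped. The differences were -0.52 for *Taar7b* (95% interval -1.24 to 0.21) and -0.51 for *Tas2r116* (95% interval -1.19 to 0.18), each with p = 0.171 in the exact permutation test and an adjusted p = 0.945 in limma's fit of all probes. Without AAV-αSyn replicate 1 *Taar7b* differed by -0.27, and without AAV-αSyn replicate 4 *Tas2r116* differed by -0.27. Within the sides of the slide *Tas2r116* differed by -0.52 and -0.49, and with the side as a block it was a second receptor under an unadjusted p of 0.05 (SE 0.19, adjusted p = 0.917 in limma's fit). *Taar9* had stand-ins on 3 AAV-Null arrays and on 1 AAV-αSyn array, and its log2 values were 1.13, 1.14, 1.12 and 1.88 against 2.87, 1.13, 1.74 and 1.48. Its difference was 0.49 (SE 0.39), with p = 0.314 in the exact permutation test, and 0.13 without AAV-αSyn replicate 1. With normexp the differences were much smaller, at -0.057 for *Taar7b*, -0.055 for *Tas2r116*, 0.085 for *Taar9* and -0.049 for *Tas2r118*. In the deposited matrix *Taar9* differed by 0.90 and *Tas2r118* by -0.90, while *Taar7b* and *Tas2r116* stayed at -0.52 and -0.50.

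The genes that carry taste signals inside a taste cell were measured beside the receptors. Of 18 taste transduction genes listed, 14 had a probe above background on at least 1 array, and each gene was represented by its brightest probe. *Gnat3*, which encodes the taste G protein gustducin, *Calhm1*, a subunit of the channel that releases ATP from taste cells, and *Rgs21* were above background on no array, and *Pkd2l1* had no probe named here. None of the 14 came under an unadjusted p of 0.05 in limma's fit of probes above background, where 1908 of 33853 did (5.64%), and their median log2 difference was 0.045 beside 0.0083 over all probes tested. The differences in log2 intensity were 0.060 (SE 0.076) for *Gnb1* and 0.27 (SE 0.14) for *Gnb3*, both G protein β subunits, and -0.046 (SE 0.061) for the γ subunit gene *Gng13*. They were 0.031 (SE 0.16) for *Plcb2*, the phospholipase of the taste cascade, 0.055 (SE 0.14) for the inositol trisphosphate receptor gene *Itpr3* and 0.036 (SE 0.14) for the cation channel gene *Trpm4*. *Trpm5*, the cation channel at the end of the cascade, was above background on 5 arrays and differed by 0.37 (SE 0.46).

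Several of these genes also mark tuft cells and other chemosensory cells. Of 4 such markers *Gnat3* was at background, *Trpm5* and *Pou2f3* did not pass an unadjusted p of 0.05, and *Avil*, which encodes the actin-binding protein advillin, came under it with a difference of 0.33 (SE 0.13, adjusted p = 0.844 in limma's fit). The arrays of the groups did not overlap for *Avil*, as for 3.83% of the probes tested. The summed intensity of the 3 markers tested, most of which comes from *Avil*, was 118 to 174 units on the AAV-Null arrays and 171 to 196 units on the AAV-αSyn arrays. The olfactory neuron markers *Omp*, *Cnga2* and *Stoml3* were above background on no array.

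The genes around the trace amine receptors include several that dopaminergic neurons also use. Of 18 genes listed 17 were tested, with *Inmt* at background, and none passed an adjusted p of 0.05, as against 5 of 33853 probes (0.0148%). Under an unadjusted p of 0.05 there were 3 lower and 1 higher in the AAV-αSyn group, where 2.32% and 3.31% of all probes tested were lower and higher. Their median log2 difference was -0.029. The lower ones were *Slc6a3*, the dopamine transporter gene (-0.79, SE 0.25, adjusted p = 0.747 in limma's fit), *Drd2*, the dopamine D2 receptor gene (-0.33, SE 0.090, adjusted p = 0.661 in limma's fit), and *Ddc*, whose product makes both dopamine and trace amines (-0.25, SE 0.096, adjusted p = 0.835 in limma's fit). *Maob*, which encodes a monoamine oxidase that degrades them, was the higher one (0.20, SE 0.085, adjusted p = 0.868 in limma's fit). With the replicate number as a block *Slc6a3* and *Drd2* stayed under an unadjusted p of 0.05 and *Ddc* and *Maob* did not. With single arrays left out the number of genes under it ran from 2 to 7. *Slc6a3* and *Drd2* stayed under it each time, and *Ddc* and *Maob* did not. The groups of arrays did not overlap for *Drd2*, *Ddc*, *Maob* or *Adcy5*, an arrangement that 3.83% of the probes tested showed, and each had p = 0.0286 in the exact permutation test, the smallest it can give. For *Adcy5*, an adenylate cyclase gene, the difference was -0.12 (SE 0.064).

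The next genes of that list in order were *Maoa*, which differed by 0.13 (SE 0.084), and *Slc18a2*, the vesicular monoamine transporter gene, which differed by -0.29 (SE 0.13). *Slc22a2* and *Slc22a3*, organic cation transporter genes, differed by -0.25 (SE 1.12) and 0.43 (SE 0.29). The G protein genes *Gnas* and *Gnal* and the adenylate cyclase gene *Adcy3* differed by 0.067 (SE 0.084), -0.028 (SE 0.14) and -0.029 (SE 0.15). None of these came under an unadjusted p of 0.05.

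Marker genes of the cell types in or near the SN were read beside these values. The 6 dopaminergic markers, of which *Slc6a3* and *Slc18a2* are also on the trace amine list, summed to 124065 to 159443 units on the AAV-Null arrays and 95032 to 102731 units on the AAV-αSyn arrays, and 3 of them were lower with an unadjusted p under 0.05, beside 2.32% of all probes tested. All 4 markers of raphe and pons neurons (*Tph2*, *Slc6a4*, *Fev* and *Dbh*) had higher means in the AAV-αSyn group, and their sums were 337 to 2103 units against 1984 to 5694 units. *Tph2* and *Slc6a4* had an unadjusted p under 0.05, beside 3.31% of all probes tested that were higher, and *Dbh* was above background on 3 AAV-αSyn arrays and no AAV-Null array, so it was tested only through the group where it is high. None of these markers passed the adjustment, with lowest adjusted p of 0.484 and 0.600 in limma's fit. Their part in the differences of the trace amine genes was not tested. 

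**Figure D5:**
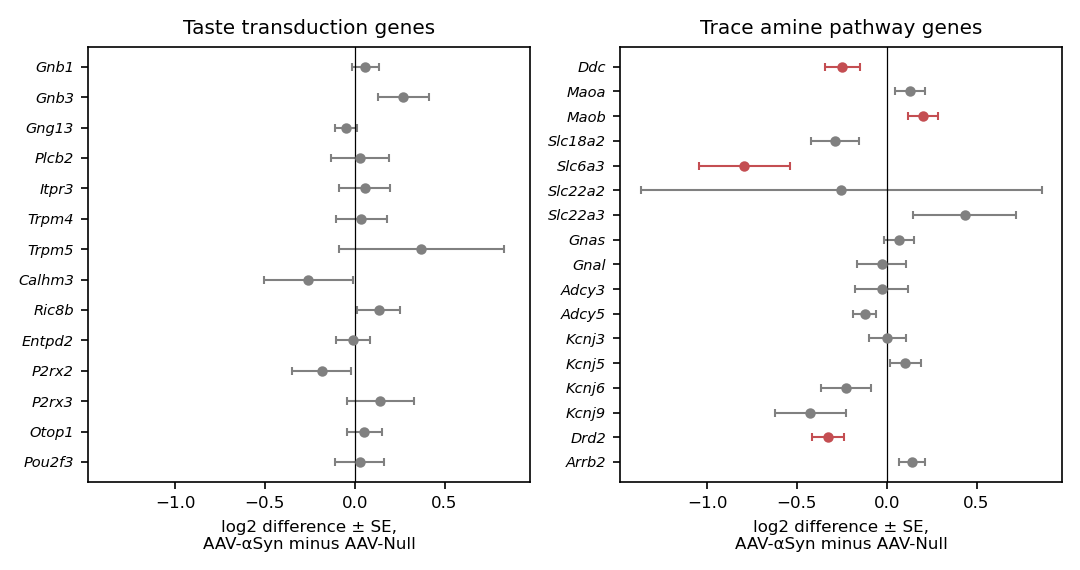
Log2 difference between AAV-αSyn and AAV-Null (horizontal, points with SE bars from limma's fit of 33853 probes) for 14 taste transduction genes and 17 trace amine pathway genes above background. Red points have an unadjusted p under 0.05, which no taste transduction gene and 4 trace amine pathway genes (*Ddc*, *Maob*, *Slc6a3* and *Drd2*) reached.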

How the data were processed

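RNA from the injected SN was measured on 8 Agilent rat arrays in 1 colour (Cy3). The scanner files deposited by the authors hold the intensity of each spot in arbitrary units, as processed within the array by Feature Extraction (12.0.3.2 per the file headers, 11.5.1.1 per the submitters' processing notes), with background-subtracted intensity, error estimate and calls against background. Their deposited matrix, of quantile-normalized log2 values for every spot, served as an alternative. The build of the design is rn4 per the file headers, and symbols came from RefSeq accessions of GRCr8, so no coordinates are given. Columns of other samples numbered 0.

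With R 4.3.3 and limma 3.58.1, control and outlier spots were left out, intensities were taken to log2 and quantile normalized, and spots of a probe were averaged. The well above background call of a probe on an array was taken as that of 0.5 or more of its spots. Groups were compared by limma's lmFit and eBayes over all 45598 probes, and over the 33853 above background on at least 1 array, with Benjamini–Hochberg adjustment and a threshold of 0.05. Members above background and gene lists were read from the second fit. The procedure was tested on simulated data. The number of arrays limits the precision.

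Named are every receptor above background, *Tas2r106*, the 5 receptors at background with the largest differences, any receptor under an unadjusted p of 0.05, and, of the gene lists, every gene under an unadjusted p of 0.05 and up to 8 in list order. Receptors named outside this rule, such as the remaining *Tas1r* genes, the chromosomal neighbours of *Tas2r106* and *Taar7e*, *Taar1*, *Tas2r110*, *Tas2r120*, *Tas2r124* and *Tas2r138*, were chosen after their values were seen. The genes and lists were chosen with earlier results of these data known. Lists of choroid plexus, microglia, astrocyte and oligodendrocyte markers were also measured. Alternatives were the normalization (75th percentile, cyclic loess), normexp with an offset of 50 on the median signals, the deposited matrix, stricter filters, other calls against background, a variance trend, the replicate number or side of the slide as a block, and arrays left out.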

Additional observations from a re-analysis of the deposited data

Results flagged for a closer look

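Among the receptors and trace amine pathway genes named by the rule, the AAV-Null values of *Taar9* held an array that stood apart. AAV-Null replicate 4 had a log2 intensity of 1.88 while the other three arrays lay between 1.121 and 1.139, a gap of 0.977 of the range of the group, above Dixon's 95% critical value for 4 arrays. The other three values are stand-ins, which lie close together because they are error estimates, and that of replicate 4 is a significant signal. On the background-subtracted intensities from before the substitution (-0.067, -2.39, -0.78 and 3.93 units) the gap was 0.632 of the range, below that critical value, so the array stood apart only after the substitution. The groups examined this way numbered 26, of which chance sets apart about 1.3, and the other receptors were not examined.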

How the results depend on the processing

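No receptor passed an adjusted p of 0.05 in the fit of all probes under any normalization, correction, block or single array left out. The number under an unadjusted p of 0.05 was 0 with 75th percentile scaling and with normexp and 2 with the side of the slide as a block (*Tas2r106* and *Tas2r116*), and between 0 and 1 with single arrays left out (0 without AAV-αSyn replicate 3). The number of receptor probes with a signal was 33 by the weaker call (32 genes), and the filters at 4 and 8 arrays left 2 and 1 for testing. The 90th percentile of the absolute difference of receptors at background was 0.792 in the deposited matrix and 0.0604 with normexp, and the median over all probes at background was 0.213 in the matrix and 0.0286 with normexp. The median of the receptors at background was 0.0826 in the matrix, 0.0297 with normexp and 0.0828 with 75th percentile scaling, and between 0.013 and 0.037 with single arrays left out. *Taar7e* turned to -0.014 with normexp. With single arrays left out it ran from -0.28 to 0.39, *Tas2r113* from -0.092 to 0.39, *Tas2r145* from -0.27 to 0.27 and *Tas2r106* from 0.37 to 0.63, the highest without AAV-αSyn replicate 1. In the deposited matrix without AAV-αSyn replicate 1 and 1 AAV-Null array the *Tas2r106* differences were 1.46, 1.46, 1.47 and 1.47. The number of trace amine pathway genes under an unadjusted p of 0.05 was between 2 and 7 with single arrays left out (2 without AAV-αSyn replicate 1 or 3, 7 without AAV-Null replicate 3). The cause of these shifts was not tested. Signal over background limits all receptors, *Tas1r1* included.

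Arrays of the same replicate number share a position on the slide. Their deviations from the group means correlated at 0.098, 0.157, 0.199 and 0.0065 for numbers 1 to 4. Arrays of different numbers and groups correlated between -0.162 and 0.142. A threshold of 0.1 for every pair of the same number was not met, so the samples were not taken as paired in the main fit. This cut does not show that position had no effect. With the replicate number as a block *Tas2r106* differed by 0.48 (SE 0.15, adjusted p = 0.734 in limma's fit), and 2 trace amine pathway genes (*Slc6a3* and *Drd2*) came under an unadjusted p of 0.05.

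The remaining marker lists had no gene under an unadjusted p of 0.05. The choroid plexus markers had differences of both signs, with *Ttr* at 1.28 (SE 1.10) and *Kcnj13* at -0.77 (SE 0.52), and their summed intensity was 278 to 699 units in the AAV-Null group and 259 to 5390 units in the AAV-αSyn group, with *Ttr* at 12.33 (log2) on AAV-αSyn replicate 2. The median log2 difference was -0.077 for choroid plexus, 0.072 for microglia, 0.085 for astrocyte and 0.052 for oligodendrocyte markers.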
